A study of Mus musculus with 27 samples.

Results

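The 37 genes described here are *Ppara* and the genes of fatty acid oxidation that stand with it in the liver, taken by symbol from a table of 23191 named genes. They comprise 3 regulators (*Ppara*, *Creb3l3* and *Fgf21*), 18 mitochondrial members, 10 peroxisomal members, and 6 members of the cytosol, the endoplasmic reticulum (ER) and membranes. The livers came from male C57BL/6J mice that were 8 weeks old when the feeding began. HGFAC-KO mice, made by CRISPR/Cas9, lack HGFAC (hepatocyte growth factor activator, a serine protease secreted by the liver) in the whole body through a deletion that takes out exon 2 and a piece of exon 1, and the controls were their littermates. Mice of both genotypes ate chow or a diet rich in fat and sucrose (HF/HS) for 4 weeks, which gave 7 control mice on chow, 6 KO mice on chow, 7 control mice on HF/HS and 7 KO mice on HF/HS. Each library was 1 mouse. The questions were how the pathway differed between the diets, between the genotypes, and between the mitochondrial and the peroxisomal enzymes.

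PPARA is a nuclear receptor that binds fatty acids and, as a dimer with RXRA, switches on genes of fatty acid uptake and oxidation in hepatocytes, most strongly during fasting. Mitochondria oxidize fatty acids that enter through the carnitine shuttle, in a spiral of dehydrogenation, hydration, dehydrogenation and thiolysis whose electrons reach the respiratory chain through the electron transfer flavoprotein. Peroxisomes shorten very long and dicarboxylic chains with their own set of enzymes and pass the products on. In rodent liver the peroxisomal enzymes are classic targets of PPARA.

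Total counts per library ran from 36056177 to 57298657. *Hgfac*, the targeted gene, was lower in every KO mouse than in every control mouse of the same diet (log2 fold change -1.41 on chow and -1.56 on HF/HS), so the genotype labels held. This does not check the diet labels. The 8 hepatocyte markers examined, among them *Alb* and *Hnf4a*, were present in every group. Their summed level was higher in the KO mice, with overlapping ranges. On chow it was 87789 to 100059 CPM (read counts scaled to a common library size) against 75911 to 90226 CPM in the controls. On HF/HS it was 86420 to 113879 CPM against 75411 to 92542 CPM. A sum is weighted to the most abundant genes, and the 8 markers did not all move the same way. Between genotypes on chow, 5 had higher and 3 lower estimates, and their middle value was 0.045 on the log2 scale. On HF/HS, 6 were higher and 2 lower, with a middle value of 0.086. On either diet 0 of the 8 were called at an edgeR adjusted p under 0.05. Markers of adipocytes, pancreas and muscle stayed at or under 1.35 CPM in sum. In whole liver, fewer cells of a type and less RNA per cell cannot be told apart. Replicate 1 of the KO chow group was the lowest of its group for 17 of the 37 members and replicate 7 of the control HF/HS group for 23, so values without them are given beside several of the results.

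Promoter sequence was looked at for the element that PPARA and RXRA bind, a DR1, which is 2 copies of AGGTCA with 1 base between them. RefSeq promoter windows (GRCm38.p6, from 250 bases before to 50 bases after a start) were found for 32 of the 37 members, and not for *Crat*, *Decr1*, *Vnn1*, *Hsd17b4* and *Acaa2*. On both strands, 0 of the 32 held the DR1 letters without a mismatch, against 0.0396% of all 32851 windows. With at most 1 mismatch, *Fabp1* and *Acot12* held a match, 6.25% of the members against 0.554% of all windows. With at most 2 mismatches, *Acot4*, *Creb3l3*, *Etfa* and *Slc25a20* joined them, for 18.8% against 3.86%. With at most 3 mismatches the shares were 37.5% and 24.6%. The share of members counts each of the 32 genes once over its 35 windows, whereas the background counts single windows. A match of letters is no binding site by itself. The stretches before the annotated starts of *Fabp1* (chr6:71199629-71199826, plus strand) and *Acot12* (chr13:91741271-91741511, plus strand) are shown because they carry the closest matches, in capitals, both on the minus strand with 1 mismatch.
Fabp1: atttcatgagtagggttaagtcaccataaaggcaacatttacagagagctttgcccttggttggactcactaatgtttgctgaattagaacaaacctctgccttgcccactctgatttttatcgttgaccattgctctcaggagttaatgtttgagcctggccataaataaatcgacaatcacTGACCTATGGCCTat
Acot12: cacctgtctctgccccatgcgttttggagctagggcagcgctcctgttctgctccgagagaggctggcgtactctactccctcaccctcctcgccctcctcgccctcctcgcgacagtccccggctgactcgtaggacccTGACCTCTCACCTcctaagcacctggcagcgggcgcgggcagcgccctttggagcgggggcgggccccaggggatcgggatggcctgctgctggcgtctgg

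The members lie on 18 chromosomes, and some are neighbours. *Hadha* and *Hadhb*, which encode both subunits of the mitochondrial trifunctional protein, run in opposite directions from the 85 bases between them (chr5:30155163-30155247, plus strand). These bases are shown because they separate the annotated starts of both genes, and whether they act on either gene was not tested.
Hadha to Hadhb: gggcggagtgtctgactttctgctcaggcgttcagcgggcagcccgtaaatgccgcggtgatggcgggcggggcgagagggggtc
No capitals are set in this stretch, since no match with at most 2 mismatches was found in the windows of either gene. *Acot2*, *Acot1*, *Acot4* and *Acot3* lie within 72.542 kb of chromosome 12, and *Acaa1b* and *Acaa1a* within 202.277 kb of chromosome 9. These neighbours are paralogs, and how reads that match several of them were counted is not given in the sources used here, so their separate values are uncertain.

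In control mice on chow the levels per kilobase of exon spanned more than 3 orders of magnitude. *Fabp1*, the liver fatty acid binding protein, led with a mean of 4751 CPM per kilobase. The peroxisomal thiolase *Acaa1b* followed with 799 and *Ehhadh*, the peroxisomal bifunctional enzyme, with 738 CPM per kilobase, which is within the spread of *Acaa1b*. The highest mitochondrial member was the thiolase *Acaa2* with 524 CPM per kilobase. *Ppara* stood in 20th place with 63.6 CPM per kilobase, between *Hadha* with 66.3 and *Cpt1a* with 61.8, and did not differ from either beyond its own spread. *Fgf21*, a hormone that the liver secretes in fasting and under dietary stress, was last with 1.07 CPM per kilobase. The mice of a group varied least for *Acadvl*, the very long chain acyl-CoA dehydrogenase, with a mean coefficient of variation of 4.08%, and most for *Fgf21* with 79.1%, and the median over the members was 8.79%.

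**Figure D1:**
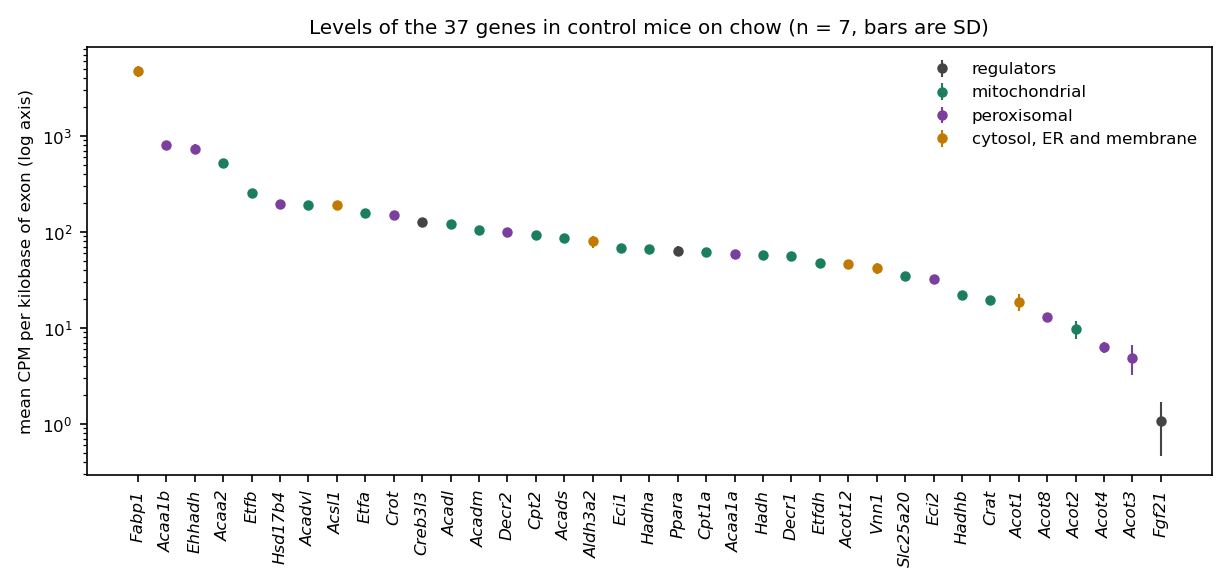
Mean level of each of the 37 genes in control mice on chow (n = 7), as CPM per kilobase of exon on a log axis with bars for the SD, ordered by level and coloured by list. *Fabp1* stands highest at 4751 and *Fgf21* lowest at 1.07.

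In control mice *Ppara* and part of the oxidation pathway stood higher on HF/HS than on chow. 15 of the 37 members rose and 0 fell at an adjusted p under 0.05 (edgeR's quasi-likelihood test, Benjamini-Hochberg adjustment over 13525 genes), where 4.93% of all genes tested rose and 5.6% fell. The members that rose were 1 regulator, 8 mitochondrial, 4 peroxisomal and 2 other members. The median log2 fold change over the 37 was 0.13, against 0.0036 over all genes. In all, 32 members had a higher and 5 a lower estimate on HF/HS, where 48.9% of all genes had a lower one.

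Among the regulators, *Ppara* stood at 202.9 CPM in the lowest, 238.9 in the median and 288.5 in the highest control mouse on chow, and at 249.7, 326.1 and 427.7 CPM on HF/HS. 6 of the 7 mice on HF/HS lay above every mouse on chow, and replicate 4 overlapped with them. *Ppara* thus rose by 0.42 ± 0.10 on the log2 scale (SE, edgeR adjusted p = 0.0162). *Fgf21* stood at 0.271, 0.955 and 1.67 CPM on chow and at 1.16, 2.63 and 8.31 CPM on HF/HS, from 14 to 349 reads a library. 5 of the 7 HF/HS mice were above all chow mice, and the log2 difference of 1.59 ± 0.49 had an edgeR adjusted p of 0.0521. Without replicate 7 of the HF/HS controls that p was 0.0379, and *Fgf21* was called in 3 of the 14 fits that left out 1 mouse. *Creb3l3*, a liver transcription factor that works with PPARA, differed by 0.10 ± 0.04 (edgeR adjusted p = 0.176).

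Of the 18 mitochondrial members, 8 rose. *Cpt1a* encodes the outer membrane carnitine palmitoyltransferase that sets the rate of entry into mitochondria. Its lowest, median and highest values were 450.1, 473.3 and 507.3 CPM on chow and 520.4, 633.9 and 738.2 CPM on HF/HS. All 7 HF/HS mice lay above all 7 chow mice, and the rise was 0.41 ± 0.06 on the log2 scale (edgeR adjusted p = 0.000702, two-sided exact permutation p = 0.000583, the smallest that 7 against 7 mice can give). The other members of the carnitine shuttle did not pass the test, with log2 differences of 0.06 for the carrier *Slc25a20*, 0.05 for the inner membrane enzyme *Cpt2* and 0.06 for *Crat*, carnitine acetyltransferase. *Eci1* encodes an isomerase that lets unsaturated chains enter the spiral. It stood at 136.7, 147.4 and 154.3 CPM on chow and at 160.9, 178.7 and 198.4 CPM on HF/HS. The groups did not overlap, and *Eci1* rose by 0.27 ± 0.05 (edgeR adjusted p = 0.00365). *Decr1*, the reductase that serves the same unsaturated chains, rose by 0.21 ± 0.06 (edgeR adjusted p = 0.0281).

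Among the spiral enzymes, 4 of 8 rose with the diet in controls. *Hadh*, the short chain hydroxyacyl-CoA dehydrogenase, stood at 261.8, 289.5 and 300.8 CPM on chow and at 299.5, 339.0 and 378.5 CPM on HF/HS. 6 of 7 HF/HS mice lay above all chow mice, and it rose by 0.26 ± 0.06 (edgeR adjusted p = 0.00934). *Hadha* rose by 0.17 ± 0.05 and its divergent neighbour *Hadhb* by 0.19 ± 0.05 (edgeR adjusted p = 0.0352 and 0.0228). Of the acyl-CoA dehydrogenases, which take the first step for chains of different length, only the medium chain enzyme *Acadm* rose, by 0.21 ± 0.06 (edgeR adjusted p = 0.0406), while the estimates for *Acadvl*, *Acadl* and *Acads* were -0.01, 0.04 and 0.05. Of the electron transfer genes, *Etfdh*, which hands electrons to ubiquinone, rose by 0.19 ± 0.05 (edgeR adjusted p = 0.0134). Both subunits of the flavoprotein itself did not pass, with 0.06 ± 0.04 for *Etfa* and 0.04 ± 0.06 for *Etfb*. When each of the 14 mice was left out in turn, the call of *Hadha* held in 5 fits, that of *Acadm* in 3 and that of *Decr1* in 10. Whether the members of a step differ from each other was not tested.

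Of the 10 peroxisomal members, 4 rose in controls. *Acaa1b* stood at 1339, 1521 and 1753 CPM on chow and at 1824, 2163 and 2960 CPM on HF/HS. No values were shared between the groups, and it rose by 0.52 ± 0.09 (edgeR adjusted p = 0.00152). Its paralog *Acaa1a* rose by 0.20 ± 0.05 (edgeR adjusted p = 0.0247). *Crot*, which attaches carnitine to the medium chain products that leave peroxisomes, stood at 747.7, 828.6 and 872.4 CPM on chow and at 894.4, 990.7 and 1128 CPM on HF/HS. Again the groups did not overlap, and the rise was 0.28 ± 0.06 (edgeR adjusted p = 0.0049). *Decr2*, the peroxisomal dienoyl-CoA reductase, went from 252.3, 265.3 and 271.1 CPM to 279.0, 295.7 and 342.6 CPM, also without overlap, and rose by 0.20 ± 0.05 (edgeR adjusted p = 0.0129). With the replicate number as a block, *Acaa1a* and *Decr2* were no longer called.

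*Ehhadh*, which carries out the middle steps of the peroxisomal spiral, did not pass this test. Its lowest, median and highest levels were 1820, 2292 and 2514 CPM in controls on chow and 1617, 2324 and 3141 CPM on HF/HS. The HF/HS mice lay on both sides of the chow mice, and the log2 difference was 0.10 ± 0.13 (edgeR adjusted p = 0.683).

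The 2 risen members outside both organelles were *Fabp1*, which ferries fatty acids in the cytosol, and *Vnn1*, a pantetheinase on the cell surface. *Fabp1*, whose upstream stretch holds 1 of the closest DR1 matches, stood at 2331, 2577 and 3275 CPM on chow and at 3354, 3835 and 4649 CPM on HF/HS. *Vnn1* stood at 79.1, 101.4 and 121.5 CPM on chow and at 131.3, 155.3 and 206.4 CPM on HF/HS. Neither gene had overlapping groups. *Fabp1* rose by 0.61 ± 0.09, which is 1.52-fold (edgeR adjusted p = 0.000359), and *Vnn1* by 0.66 ± 0.11, which is 1.58-fold (edgeR adjusted p = 0.000996). *Acot12*, which holds the other close match, had a log2 difference of -0.06 ± 0.06 (edgeR adjusted p = 0.553). *Aldh3a2*, the ER aldehyde dehydrogenase for fatty aldehydes, differed by 0.45 ± 0.17 (edgeR adjusted p = 0.0961), and without replicate 7 of the HF/HS controls by 0.56 ± 0.12 (edgeR adjusted p = 0.00599). It was called in only 1 of the 14 fits that left out 1 mouse. Without replicate 7 of the HF/HS controls 17 of the 37 members rose, where 1430 of 13592 genes were called in either direction.

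**Figure D2:**
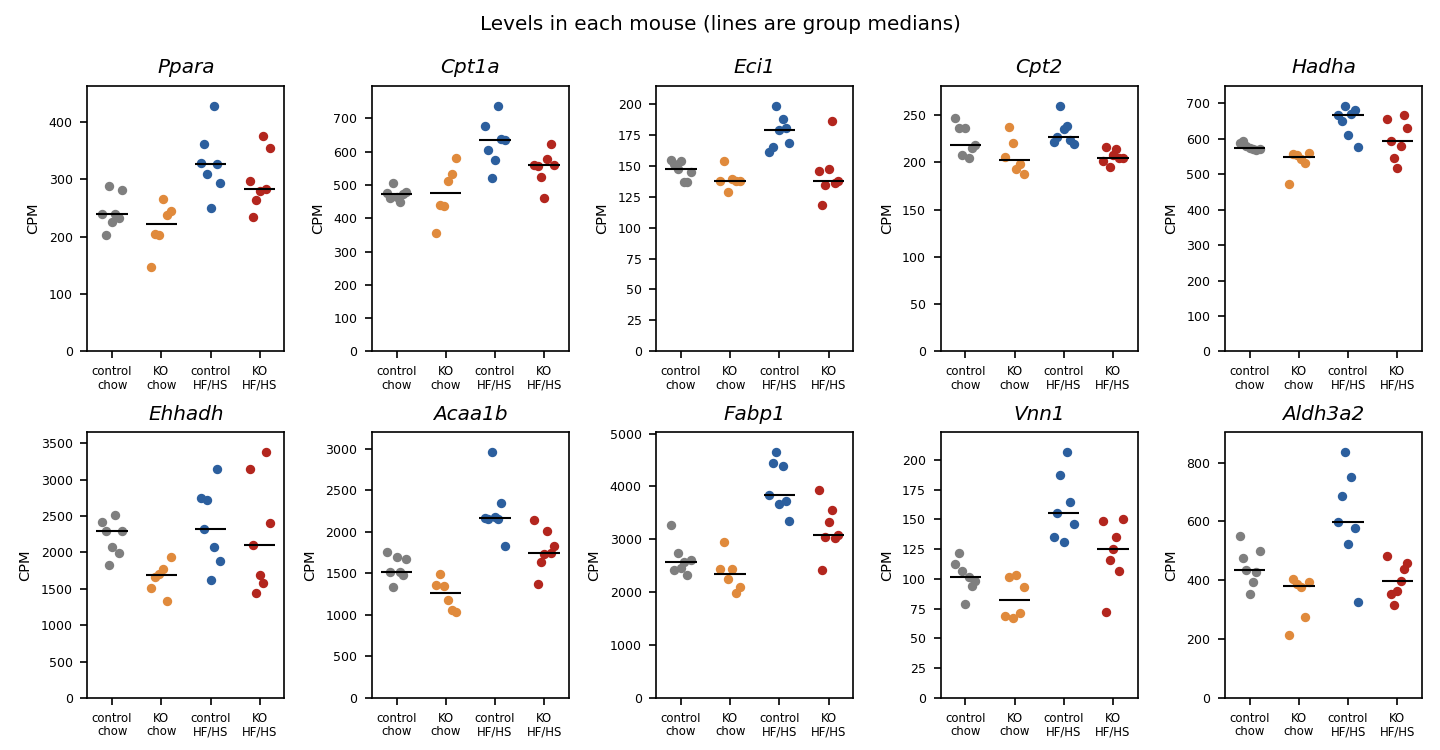
Level of 10 members in every mouse, in CPM from 0, by genotype and diet, with lines at the group medians. In controls the HF/HS points of *Cpt1a*, *Eci1*, *Acaa1b*, *Fabp1* and *Vnn1* lie above all chow points, while those of *Ehhadh* range from 1617 to 3141 CPM and surround them.

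In KO mice the same diet was followed by fewer calls. 3 of the 37 members rose and 0 fell at an edgeR adjusted p under 0.05, where 3.17% of 13613 genes rose and 2.73% fell. The 3 were *Acaa1b*, *Crot* and *Fabp1*, all of which also rose in controls, so that they made up 20% of the 15 called there. The median log2 fold change of the members was 0.06, with 25 estimates above and 12 below 0, where 49.2% of all genes were below 0. When single mice were left out, the median ran from 0.04 to 0.09 and the number below 0 from 10 to 17. A smaller count of calls in KO mice does not show that the response differed, and the test of that difference is given below. Markers of other cells moved in the same comparison. All 11 macrophage and leukocyte markers had higher estimates on HF/HS in KO mice and 5 rose, with sums of 117 to 172 CPM on chow and 165 to 254 CPM on HF/HS, and 1 of 6 endothelial markers rose. In controls 10 of the 11 had higher estimates and 1 rose, with sums of 125 to 223 CPM and 158 to 308 CPM. Of 8 hepatocyte markers, 2 fell (*Tat* among them) and 1 rose (*Apoa1*) in controls, and 1 (*Tat*) fell in KO mice, while of 6 stellate markers *Lrat* fell and *Colec11* rose in controls. Their part in the differences of the members was not tested.

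*Acaa1b* stood at 1040, 1266 and 1493 CPM in KO mice on chow and at 1370, 1748 and 2141 CPM on HF/HS. 6 of the 7 HF/HS mice lay above all 6 chow mice, and it rose by 0.51 ± 0.11 (edgeR adjusted p = 0.0115). *Crot* had lowest, median and highest values of 555.9, 744.9 and 834.8 CPM on chow and of 858.9, 960.3 and 1231 CPM on HF/HS. These groups did not overlap, and the rise of 0.47 ± 0.10 (edgeR adjusted p = 0.00968) was 0.40 ± 0.08 without replicate 1 of the KO chow group. *Fabp1* went from 1992, 2348 and 2956 CPM to 2424, 3090 and 3941 CPM, with 6 of 7 mice on HF/HS above all on chow, and rose by 0.44 ± 0.11 (edgeR adjusted p = 0.0303). The calls of *Acaa1b* and *Crot* held in each of 13 fits that left out 1 mouse, and that of *Fabp1* in 8, being lost without replicate 1 of the HF/HS group or replicate 3, 4, 5 or 6 of the chow group. With the replicate number as a block, *Fabp1* was no longer called (edgeR adjusted p = 0.084), *Acaa1b* and *Crot* were, and *Fgf21* (higher on HF/HS) and *Acot3* (lower) were called in addition. *Vnn1*, at 67.4, 82.3 and 103.3 CPM on chow and 72.1, 124.8 and 150.4 CPM on HF/HS, had 6 of 7 HF/HS mice above all chow mice and a difference of 0.53 ± 0.16 (edgeR adjusted p = 0.0662).

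Of the regulators in KO mice, *Ppara* and *Fgf21* came close to the threshold, and *Creb3l3* differed by 0.02 (edgeR adjusted p = 0.868). *Ppara* stood at 147.4, 221.3 and 265.7 CPM on chow and at 234.8, 282.9 and 374.8 CPM on HF/HS. 5 of 7 HF/HS mice were above all chow mice, and the log2 difference of 0.46 ± 0.13 had an edgeR adjusted p of 0.0527, and without replicate 1 of the KO chow group it was 0.36 ± 0.11 (edgeR adjusted p = 0.0685). Over 20 alternatives that p ran from 0.0138 to 0.12, and *Ppara* was called in 5 of them, with DESeq2, with upper quartile scaling, in a fit of all 27 mice, without replicate 2 of the HF/HS group and without replicate 4 of the chow group. *Fgf21* stood at 0.242, 0.576 and 2.25 CPM on chow and at 0.855, 2.44 and 11.04 CPM on HF/HS. The highest chow mouse was replicate 1, which lay among the HF/HS mice. The log2 difference of 2.28 ± 0.66 had an edgeR adjusted p of 0.0595, and without replicate 1 it was 2.89 ± 0.68 (edgeR adjusted p = 0.0281). *Fgf21* was called in 3 of the 13 fits that left out 1 mouse. The library counts behind *Fgf21* in KO mice were 11 to 518 reads.

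The mitochondrial members with the smallest p in KO mice were the subunits *Hadhb* and *Hadha* and the dehydrogenase *Hadh*, and none of the 18 passed. *Hadhb* stood at 121.6, 136.6 and 144.2 CPM on chow and at 131.2, 154.5 and 161.6 CPM on HF/HS. 6 of the 7 HF/HS mice exceeded all chow mice, with a log2 difference of 0.16 ± 0.06 (edgeR adjusted p = 0.103) that was 0.13 ± 0.05 without replicate 1 of the chow group. *Hadha* stood at 471.1, 549.7 and 558.7 CPM on chow and at 516.8, 593.0 and 666.7 CPM on HF/HS, a difference of 0.16 ± 0.07 (edgeR adjusted p = 0.193) that was 0.12 ± 0.07 without replicate 1. *Hadh* stood at 266.1, 273.8 and 295.2 CPM and at 278.9, 298.0 and 372.0 CPM, a difference of 0.15 ± 0.07 (edgeR adjusted p = 0.212) that was 0.09 ± 0.05 without replicate 5 of the HF/HS group. *Cpt1a*, the entry enzyme, stood at 355.1, 475.9 and 580.9 CPM on chow and at 460.4, 560.3 and 624.3 CPM on HF/HS. Only 1 of the 7 HF/HS mice exceeded all chow mice, and the difference of 0.21 ± 0.10 (edgeR adjusted p = 0.23) was 0.14 ± 0.09 without replicate 1 of the KO chow group. *Ehhadh* stood at 1336, 1685 and 1935 CPM on chow and at 1441, 2107 and 3377 CPM on HF/HS, with 4 mice above all chow mice and a difference of 0.44 ± 0.19 (edgeR adjusted p = 0.182).

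**Figure D3:**
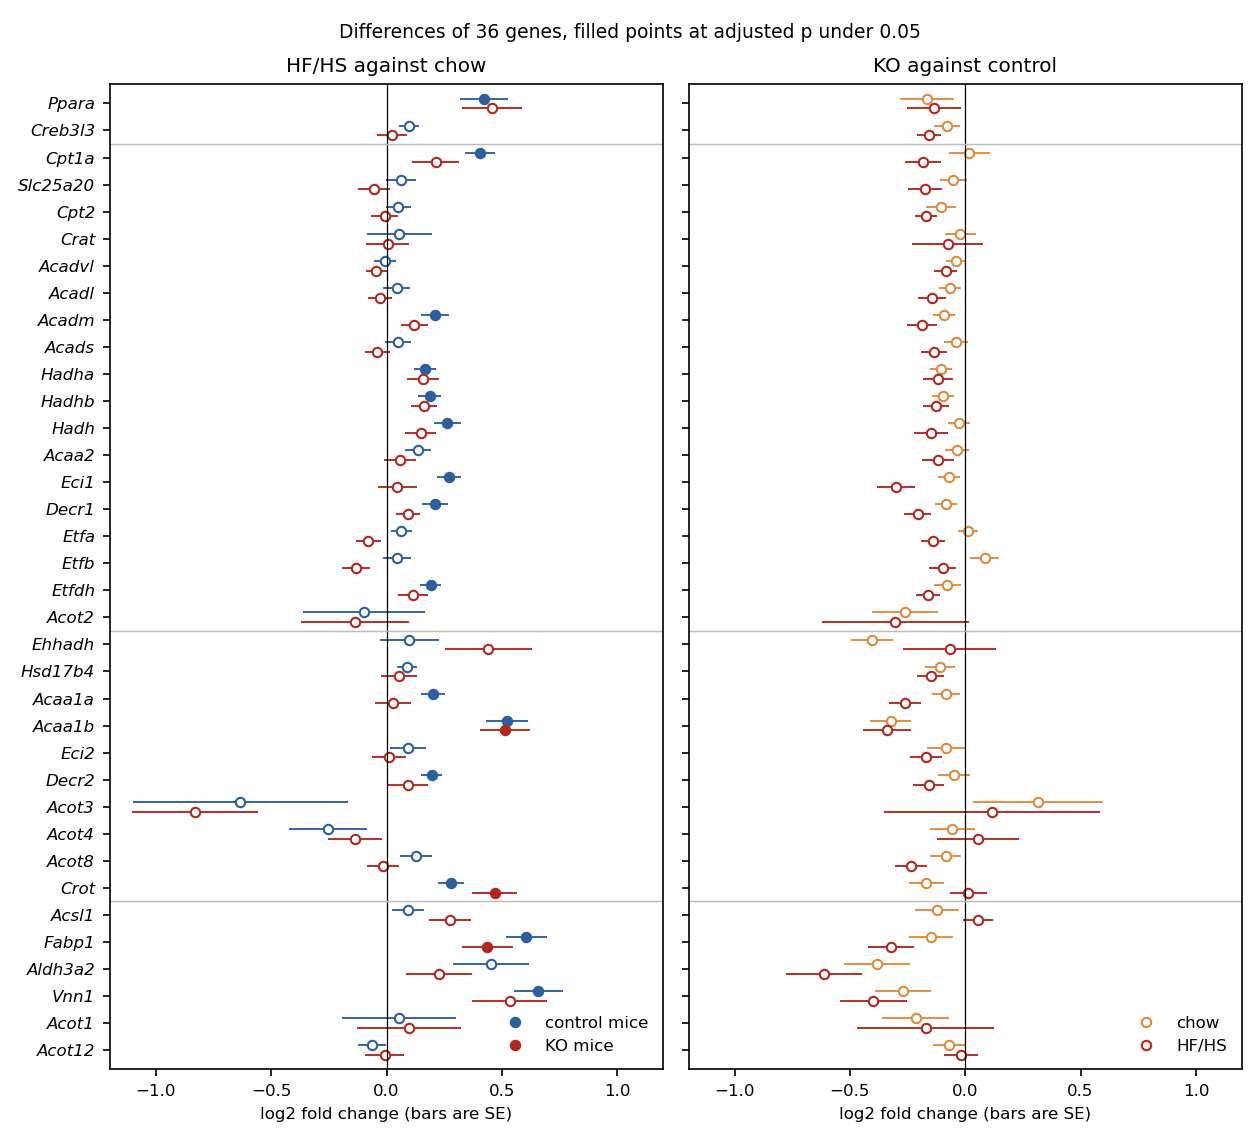
Log2 fold changes with bars for the SE of 36 members (*Fgf21* lies outside this scale and is left out), for HF/HS against chow in each genotype on the left and KO against control on each diet on the right, with filled points at an adjusted p under 0.05. 15 filled points for controls and 3 for KO mice lie right of 0 on the left, and the right panel holds none.

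Between the genotypes on HF/HS, most members had lower estimates in KO mice, but none passed the test. 0 of the 37 were called at an edgeR adjusted p under 0.05, where 2 of 13544 genes (0.0148%) were. At an unadjusted p under 0.05, 21 members were lower and 0 higher, where 4.7% of all genes were lower and 4.94% higher. All 18 mitochondrial members, 7 of 10 peroxisomal members and 5 of the 6 others had a lower estimate, and the median over the 37 was -0.15 against -0.0015 over all genes. Over all genes 50.5% had a lower estimate. The members share these mice and are not independent of each other, so 21 is a description of these 14 livers. DESeq2 called 2 members in the same comparison, *Cpt2* and *Aldh3a2*, where it called 55 of 13544 genes.

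*Cpt2*, the inner membrane transferase of the carnitine shuttle, stood at 219.6, 226.5 and 259.8 CPM in controls and at 195.4, 204.6 and 216.5 CPM in KO mice on HF/HS. All KO mice lay below all controls, with a log2 difference of -0.17 ± 0.05 (edgeR adjusted p = 0.353, two-sided exact permutation p = 0.000583, not adjusted over members). *Eci1* stood at 160.9, 178.7 and 198.4 CPM in controls and at 118.3, 137.4 and 186.2 CPM in KO mice. 6 of the 7 KO mice lay below every control and replicate 5 did not, and the difference was -0.30 ± 0.08 (edgeR adjusted p = 0.341). *Decr1* stood at 222.7, 253.1 and 279.9 CPM and at 208.4, 215.3 and 234.5 CPM, with a difference of -0.21 ± 0.06 (edgeR adjusted p = 0.354). The unsaturated chain enzymes *Eci1* and *Decr1* were thus the mitochondrial members with the smallest p beside *Cpt2*. Leaving out replicate 5 of the KO mice, 1 member was called, which was *Eci1*, where 11 of 13604 genes were called. *Eci1* was called in only 1 of the 14 fits that left out 1 mouse.

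Among peroxisomal members on HF/HS, *Acaa1a* stood at 263.6, 305.6 and 343.6 CPM in controls and at 220.8, 254.7 and 290.6 CPM in KO mice. 5 of 7 KO mice lay below every control (log2 difference -0.26 ± 0.07, edgeR adjusted p = 0.339). *Acot8*, a peroxisomal thioesterase that frees acids from coenzyme A, stood at 25.8, 28.2 and 34.1 CPM and at 21.3, 24.9 and 26.8 CPM, with the same degree of separation and a difference of -0.23 ± 0.07 (edgeR adjusted p = 0.396). *Acaa1b*, with a highest KO mouse at 2141 CPM and a lowest control at 1824 CPM, differed by -0.34 ± 0.11 (edgeR adjusted p = 0.411). *Ehhadh*, at medians of 2324 and 2107 CPM, differed by -0.07 ± 0.20 and *Crot*, at medians of 990.7 and 960.3 CPM, by 0.01 ± 0.08.

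Outside the organelles on HF/HS, *Aldh3a2* stood at 324.7, 596.4 and 835.2 CPM in controls and at 314.9, 398.4 and 481.5 CPM in KO mice. 6 of the 7 controls lay above every KO mouse, and replicate 7 of the controls lay among them. The log2 difference was -0.61 ± 0.16 (edgeR adjusted p = 0.341). Without replicate 7, the lowest control for this gene, it was -0.72 ± 0.12 (edgeR adjusted p = 0.0442). *Aldh3a2* was then the 1 member called, where 5 of 13608 genes were. It was called in only 1 of the 14 fits that left out 1 mouse. *Fabp1*, at 3354, 3835 and 4649 CPM in controls and 2424, 3090 and 3941 CPM in KO mice, differed by -0.32 ± 0.10 (edgeR adjusted p = 0.411). *Ppara* itself, at medians of 326.1 and 282.9 CPM, differed by -0.14 ± 0.12 (edgeR adjusted p = 0.737), *Cpt1a*, at medians of 633.9 and 560.3 CPM, by -0.18 ± 0.08 (edgeR adjusted p = 0.483), and *Fgf21*, at medians of 2.63 and 2.44 CPM, by 0.37 ± 0.59 (edgeR adjusted p = 0.878), which was 0.23 ± 0.60 without replicate 7 of the controls and turned to -0.14 without replicate 1 of the KO group. Over the alternatives the difference of *Ppara* ran from -0.20 to -0.06. *Creb3l3* stood at 388.1, 401.6 and 430.1 CPM in controls and at 329.7, 356.3 and 393.3 CPM in KO mice. 5 of 7 KO mice lay below every control, and the difference was -0.16 ± 0.05 (edgeR adjusted p = 0.415, exact permutation p = 0.00291, not adjusted over members).

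On chow, too, most members had lower estimates in KO mice and none passed the test. 0 of 37 members were called, where 1 of 13571 genes (0.00737%) was, and that gene was *Hgfac*. At an unadjusted p under 0.05, 6 members were lower (1 mitochondrial, 3 peroxisomal and 2 others) and 0 higher, where 2.59% of all genes were lower and 3.39% higher. 33 of the 37 estimates were below 0 with a median of -0.08, where 48.8% of all genes were below 0 with a median of 0.0031. Here too the members share their mice and are not independent of each other. DESeq2 called 1 member, *Ehhadh*, where it called 13 of 13571 genes. Without replicate 1 of the KO group 4 members had an unadjusted p under 0.05 and the median was -0.06. The count of 6 ran from 3 (without control replicate 1 or 5 or KO replicate 5) to 9 (without KO replicate 6) when single mice were left out.

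*Ehhadh* had the smallest p of the members on chow. Its levels of 1820, 2292 and 2514 CPM in controls stood against 1336, 1685 and 1935 CPM in KO mice. 5 of the 6 KO mice lay below every control, and the log2 difference was -0.40 ± 0.09 (edgeR adjusted p = 0.801, exact permutation p = 0.00233, not adjusted over members). *Acaa1b*, at 1339, 1521 and 1753 CPM in controls and 1040, 1266 and 1493 CPM in KO mice, differed by -0.32 ± 0.09 with 3 KO mice below every control (edgeR adjusted p = 0.801). Without replicate 1 these differences were -0.38 and -0.35. *Crot* differed by -0.17 ± 0.08 (edgeR adjusted p = 0.801) and without replicate 1, whose level of 555.9 CPM lay far under the other 5 KO mice, by -0.10 ± 0.05.

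Of the mitochondrial members on chow, *Hadha*, *Hadhb* and *Acadm* had the smallest p, and the largest estimate was that of the thioesterase *Acot2* (-0.26 ± 0.14, edgeR adjusted p = 0.81). *Hadha* stood at 567.3, 574.3 and 594.4 CPM in controls and at 471.1, 549.7 and 558.7 CPM in KO mice. Every KO mouse lay below every control (log2 difference -0.10 ± 0.05, edgeR adjusted p = 0.801, exact permutation p = 0.000583, not adjusted over members), and without replicate 1 the difference was -0.07 ± 0.04. *Hadhb*, at medians of 143.1 and 136.6 CPM, differed by -0.10 ± 0.05, and *Acadm*, at medians of 409.6 and 384.3 CPM, by -0.09 ± 0.05 (edgeR adjusted p = 0.801 and 0.81). *Cpt1a* had the same middle in both groups, with medians of 473.3 and 475.9 CPM, but a wider range in KO mice (355.1 to 580.9 CPM against 450.1 to 507.3), and its estimate was 0.02 ± 0.09, with a sign that changed with voom. *Ppara*, at medians of 238.9 and 221.3 CPM, differed by -0.16 ± 0.12 and without replicate 1 by -0.08 ± 0.09. *Fgf21*, at medians of 0.955 and 0.576 CPM, differed by -0.30 ± 0.50 and without replicate 1 by -0.92 ± 0.44.

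Of the other members on chow, *Aldh3a2* stood at 352.8, 435.6 and 548.7 CPM in controls and at 214.5, 381.6 and 405.7 CPM in KO mice. 5 of 7 controls lay above every KO mouse, with a log2 difference of -0.38 ± 0.14 (edgeR adjusted p = 0.801) that was -0.28 ± 0.11 without replicate 1. *Vnn1*, at 79.1, 101.4 and 121.5 CPM in controls and 67.4, 82.3 and 103.3 CPM in KO mice, differed by -0.27 ± 0.12 (edgeR adjusted p = 0.801), and without replicate 1 by -0.22 ± 0.12.

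With all 27 mice in a model with diet as a term, 1 member was called. This model uses the same mice as the comparisons on each diet. *Acaa1b* fell by 0.33 ± 0.07 on the log2 scale in KO mice (edgeR adjusted p = 0.0431), which is 20.6% lower, where 22 of 13749 genes (0.16%) were called. At an unadjusted p under 0.05, 21 members were lower and 0 higher, where 5.95% of all genes were lower and 7.1% higher. The call of *Acaa1b* was near the threshold. It held in 8 of the 27 fits that left out 1 mouse and was lost in 19, among them that without replicate 1 of the KO chow group (edgeR adjusted p = 0.0521), and it was lost with upper quartile scaling, without a filter on low counts and with the replicate number as a block. DESeq2 called 8 members, *Acaa1b* among them, where it called 174 of 13749 genes. In the same model the hepatocyte marker *Alb* rose by 0.30 ± 0.06 and the cholangiocyte marker *Sox9* by 0.67 ± 0.14 in KO mice (edgeR adjusted p = 0.0297 and 0.0431), and their part in the result was not tested. Next came *Aldh3a2* with -0.50 ± 0.12 (edgeR adjusted p = 0.0617) and *Decr1* with -0.15 ± 0.04 (edgeR adjusted p = 0.0909). *Cpt2* differed by -0.14 ± 0.04, *Eci1* by -0.19 ± 0.05, *Acaa1a* by -0.18 ± 0.05, *Acot8* by -0.16 ± 0.05 and *Vnn1* by -0.34 ± 0.10, at edgeR adjusted p values from 0.119 to 0.161. *Ppara* differed by -0.15 ± 0.09, *Cpt1a* by -0.09 ± 0.06, *Ehhadh* by -0.23 ± 0.12 and *Fgf21* by 0.10 ± 0.41 (edgeR adjusted p from 0.422 to 0.951). The median over the 18 mitochondrial members was -0.11 and over the 10 peroxisomal members -0.13.

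**Figure D4:**
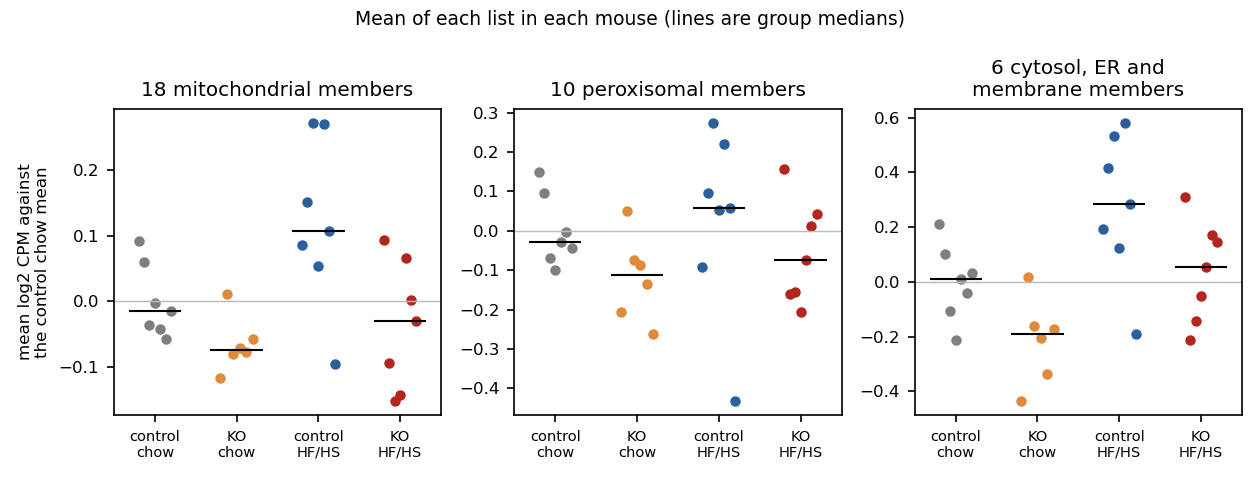
Mean log2 CPM of the mitochondrial, peroxisomal and other members in each mouse, relative to the mean of control mice on chow, with lines at the group medians and a separate axis range in each panel. The mitochondrial means of the control HF/HS mice run from -0.10 to 0.27 and those of the KO HF/HS mice from -0.15 to 0.09, so the groups overlap.

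Whether the genotypes responded differently to the diet was tested by an interaction term over the 27 mice. None of the 37 members was called at an edgeR adjusted p under 0.05, and neither was any of 13932 genes (0%), nor did DESeq2 or voom call a member. At an unadjusted p under 0.05 there were 3 members, all lower, where 3.63% of all genes passed in either direction. That count ran from 0 (without replicate 3 of the HF/HS controls, or replicate 2 of either KO group) to 5 (without replicate 1 of the KO chow group or replicate 5 of the KO HF/HS group). The 3 were *Eci1* with -0.23 ± 0.10, *Etfa* with -0.14 ± 0.06 and *Etfb* with -0.18 ± 0.08 (edgeR adjusted p = 0.984 each). *Etfa* stood at medians of 291.0 CPM in controls on chow, 302.0 in controls on HF/HS, 289.8 in KO mice on chow and 276.8 in KO mice on HF/HS, so that HF/HS medians lay above chow in controls and below it in KO mice. *Etfb* had medians of 298.6 and 299.3 CPM in controls on chow and HF/HS, and of 307.6 and 286.8 CPM in KO mice. All 18 mitochondrial estimates were negative, with a median of -0.08, against 7 of the 10 peroxisomal estimates with a median of -0.06. Over all genes 48.7% were negative. The sign changed under at least 1 alternative for the mitochondrial *Acot2*, *Crat*, *Hadha* and *Hadhb* and the peroxisomal *Acaa1b* and *Acot3*. *Acaa1a* (-0.17 ± 0.09), *Crot* (0.19 ± 0.11), *Acot8* (-0.15 ± 0.10), *Acsl1* (0.18 ± 0.12), the acyl-CoA synthetase that activates fatty acids, and *Fabp1* (-0.17 ± 0.14) had the smallest p of the remaining lists, and without replicate 1 of the KO chow group *Crot* had 0.12 ± 0.10. The term was 0.03 ± 0.17 for *Ppara*, -0.19 ± 0.12 for *Cpt1a*, 0.34 ± 0.24 for *Ehhadh* and 0.69 ± 0.84 for *Fgf21*. These errors are large beside the diet effects themselves, so a missed threshold does not show that the genotypes responded alike. Over the alternatives the term ran from -0.27 to -0.13 for *Cpt1a*, from 0.22 to 0.43 for *Ehhadh* and from 0.17 to 1.30 for *Fgf21*.

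The thioesterases of the chromosome 12 cluster spread widely within the groups. *Acot1* works in the cytosol, *Acot2* in mitochondria, and *Acot3* and *Acot4* in peroxisomes, and all split acyl-CoA into fatty acid and coenzyme A. In controls on HF/HS, *Acot3* stood at 3.40, 16.1, 17.1, 13.9, 18.3, 6.10 and 1.22 CPM in replicates 1 to 7. *Acot2* stood at 13.3, 29.0, 29.9, 14.8, 27.2, 16.5 and 8.17 CPM in the same mice. Replicate 7 was the lowest for both, and also for *Acot1* at 30.3 CPM and *Acot4* at 18.7 CPM. In KO mice on HF/HS, replicate 1 was the highest for all 4, with 111.4 CPM of *Acot1*, 30.0 of *Acot2*, 18.03 of *Acot3* and 46.6 of *Acot4*. None of the 4 passed edgeR's test in any comparison when every mouse was kept and no block was used. The smallest adjusted p belonged to *Acot3* between the diets in KO mice, at 8.36, 21.2 and 31.5 CPM on chow and 6.73, 11.6 and 18.03 CPM on HF/HS, with a log2 difference of -0.83 ± 0.27 (edgeR adjusted p = 0.0905), and it was called by DESeq2, with the replicate number as a block, and without replicate 6 of the KO chow group. These genes are paralogs, and how far shared reads tie their values to each other was not tested.

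**Figure D5:**
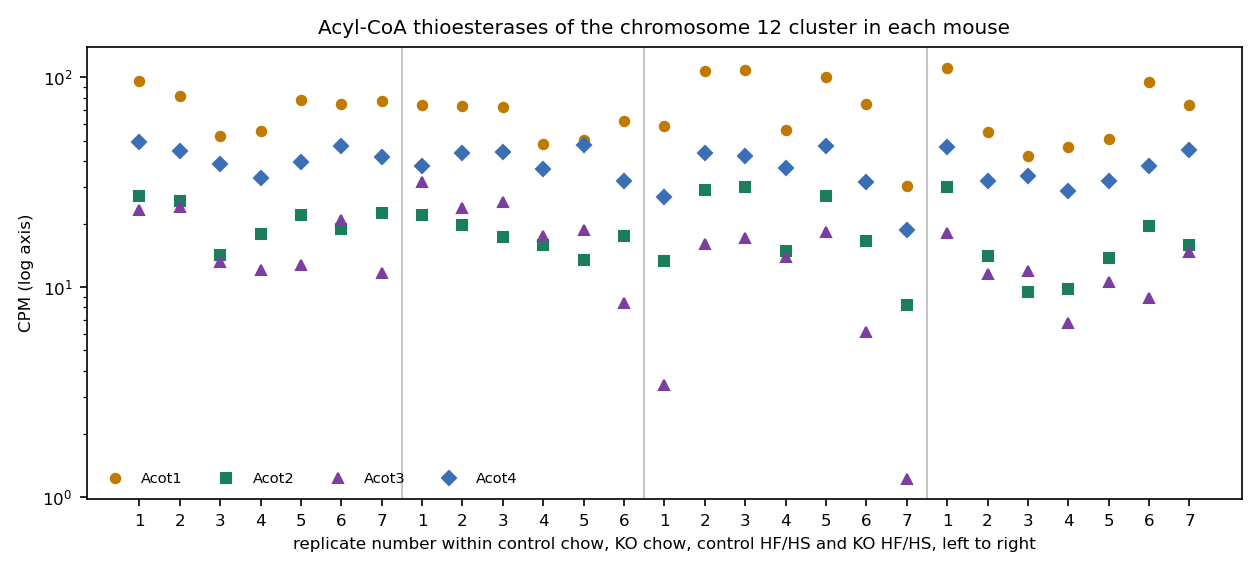
Levels of *Acot1*, *Acot2*, *Acot3* and *Acot4* in each of the 27 mice, in CPM on a log axis, with vertical lines between the groups. Replicate 7 of the HF/HS controls is the lowest mouse for each of the 4 genes, down to 1.22 CPM of *Acot3*.

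A further list of 70 genes of the pathway, of which 69 were tested, was set beside the members. With the diet in controls 12 of the 69 rose and 7 fell, where 4.93% of all genes tested rose and 5.6% fell. The peroxisomal part held 7 of the 12, while *Acot6*, a peroxisomal thioesterase, was the 1 of that part that fell, with a log2 fold change of -1.54 ± 0.22 (edgeR adjusted p = 0.000347). *Slc27a2*, a very long chain acyl-CoA synthetase, rose by 0.33 ± 0.05 (edgeR adjusted p = 0.000457). With the diet in KO mice 2 rose and 2 fell, which is near the 3.17% and 2.73% over all genes. Of them *Mgll*, *Ucp2* and *Pdk4* had the smallest p, with log2 fold changes of 0.36 ± 0.08, 0.47 ± 0.11 and -0.98 ± 0.24 (edgeR adjusted p = 0.0178, 0.0199 and 0.0272). *Pdk4* encodes a kinase that shuts off pyruvate dehydrogenase.

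Between genotypes 0 of the 69 further genes were called on either diet, over both diets or in the interaction. At an unadjusted p under 0.05, 8 were lower and 2 higher on chow (2.59% and 3.39% of all genes), 21 were lower and 2 higher on HF/HS (4.7% and 4.94%), 20 were lower and 3 higher over both diets (5.95% and 7.1%), and 4 were lower and 1 higher in the interaction (3.63% in either direction). *Phyh* differed on HF/HS by -0.21 ± 0.05 and *Cyp4a10* by -0.31 ± 0.08, at edgeR adjusted p values of 0.333 and 0.339. On chow the smallest p belonged to *Pparg* with -0.46 ± 0.11, *Esrra* with 0.21 ± 0.06 and *Abcd2* with 0.53 ± 0.16 (edgeR adjusted p = 0.801 each), and over both diets *Pparg* differed by -0.45 ± 0.12 and *Hsdl2* by -0.16 ± 0.05 (edgeR adjusted p = 0.0909 and 0.14). In the interaction the smallest p belonged to *Acot6* with 0.86 ± 0.33, *Hsd17b10* with -0.42 ± 0.17 and *Phyh* with -0.22 ± 0.09 (edgeR adjusted p = 0.984 each).

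*Ppara* and many of its targets follow the time of day and the feeding state, and neither the hour of collection nor the feeding state of these mice at that hour is given for the sequenced livers in the sources used here, so 11 clock genes were examined. For liver triglycerides in these genotypes and diets the study describes refeeding after a night without food, and it does not say whether the sequenced livers came from those mice. With the diet in controls, 2 of the 11 rose, *Dbp* by 1.47 ± 0.39 and *Nr1d1* by 0.77 ± 0.20 (edgeR adjusted p = 0.0284 and 0.0272), where 4.93% of all genes rose. *Dbp* stood at 4.88 to 36.6 CPM in controls on chow, 22.3 to 60.7 in controls on HF/HS, 3.42 to 39.9 in KO mice on chow and 4.17 to 42.2 in KO mice on HF/HS. None of the 11 was called with the diet in KO mice or between genotypes. Between genotypes on chow 0 had an unadjusted p under 0.05, and on HF/HS there were 4 lower and 2 higher at an unadjusted p under 0.05, the latter being *Arntl* with 0.53 ± 0.13 and *Npas2* with 0.84 ± 0.30. Over all genes 4.7% were lower and 4.94% higher on HF/HS. The mean log2 CPM of the 11, relative to control mice on chow, averaged 0.28 in controls on HF/HS (0.03 to 0.50). In KO mice on HF/HS it averaged -0.08 (-0.54 to 0.40). The part of the clock genes, and that of the higher hepatocyte marker sum in KO mice, in the differences of the members was not tested.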

How the data were processed

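The authors aligned stranded, paired-end mRNA reads from snap-frozen liver to the mouse genome (GRCm38, mm10) with HISAT2 and deposited raw counts per gene from featureCounts 1.6.3, the version being that of the submitters' processing notes. The annotation and the strand setting of the counting are not given in the sources used here. Rows without a gene name (3886 of 27179, from 4.13% to 12.1% of a library's counts) were left out, and the 89 symbols on several rows, none a member, were summed. Counts were tested with edgeR 4.0.16 (filterByExpr with a minimum count of 10, TMM scaling, robust quasi-likelihood fit, Benjamini-Hochberg threshold of 0.05 over all genes tested) in R 4.3.3, checked on simulated data. CPM were taken over TMM-scaled library sizes, and log2 CPM for exact permutation tests used a prior count of 2. CPM per kilobase used the union of GENCODE vM21 exons. Alternatives were DESeq2 1.42.0, voom in limma 3.58.1, upper quartile scaling, other filters, all 27 mice in 1 fit, the replicate number as a block, and leaving out each mouse. The members, lists and tests were chosen with earlier results of these data known. Values were printed for *Ppara*, *Cpt1a*, *Ehhadh* and *Fgf21* and, in each comparison, for the 3 mitochondrial, 3 peroxisomal and 2 other members and the 3 further pathway genes with the smallest p, of which 1 is not reported here. Members named beyond these were chosen after their values were seen.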

Additional observations from a re-analysis of the deposited data

Results flagged for a closer look

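In 12 of the 148 sets of a member and a group, 1 mouse lay apart from the others of its group by Dixon's test, which chance does in about 1 of 20 sets. Replicate 1 of the KO chow group accounted for 6 of them. It was low for *Hadha* (471.1 CPM, the others from 531.9 to 558.7), *Etfdh* (276.6 CPM), *Hsd17b4* (483.9 CPM), *Crot* (555.9 CPM, the others from 733.1 to 834.8) and *Acot12* (110.3 CPM), and high for *Fgf21* (2.25 CPM, the others from 0.242 to 0.746). Replicate 5 of the KO HF/HS group was high for *Slc25a20* (189.6 CPM) and *Eci1* (186.2 CPM, the others from 118.3 to 147.2). Single mice were high for *Fgf21* in replicate 5 of the control HF/HS group (8.31 CPM), *Etfb* in replicate 3 of that group (361.7 CPM), *Acadvl* in replicate 2 of the control chow group (556.6 CPM) and *Fabp1* in replicate 1 of that group (3275 CPM).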

How the results depend on the processing

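The number of members called depended on the tool. DESeq2 called 1 member between genotypes on chow, 2 on HF/HS and 8 over both diets, and 8 between the diets in KO mice, where a fit of all 27 mice also called 8. Over all genes DESeq2 called 13 of 13571, 55 of 13544, 174 of 13749 and 1401 of 13613, in the same order. The fit of all 27 mice called 1163 of 13932 genes between the diets in KO mice. Over both diets 0 members were called with upper quartile scaling, with no filter on low counts or with the replicate block, where 23, 15 and 14 genes were called. No source says what the replicate numbers mark, and same-numbered mice did not deviate together throughout (correlations from -0.252 to 0.368), so they were not treated as pairs. Between the diets in KO mice, 4 of 6 correlations were over 0.1. The replicate block left 8 of the 15 members called between the diets in controls, called 4 in KO mice (*Acaa1b*, *Crot*, *Fgf21* and *Acot3*, without *Fabp1*) and 0 between genotypes on either diet. Over all genes it called 774 of 13525 in controls and 602 of 13613 in KO mice between the diets. The members lost in controls were *Acadm*, *Decr1*, *Hadh*, *Hadha*, *Hadhb*, *Acaa1a* and *Decr2*. When each mouse was left out in turn, the members called ran from 0 to 1 between genotypes on HF/HS, from 11 to 17 between the diets in controls, from 2 to 6 between the diets in KO mice and from 0 to 3 over both diets. The highest counts in KO mice came without replicate 2 of the HF/HS group (6 members) or replicate 4 (5 members), and over both diets without replicate 7 of the HF/HS controls or replicate 2 of the KO chow group (3 members each). In that order those fits called 691, 696, 69 and 31 genes. Among *Ppara*, *Cpt1a*, *Ehhadh*, *Fgf21* and the members with the smallest p, the sign changed for *Cpt1a* on chow (voom -0.000826, from -0.050 to 0.087 over the mice left out), *Ehhadh* between genotypes on HF/HS (from -0.19 to 0.016), *Fgf21* there (from -0.14 to 0.86) and over both diets (replicate block -0.14, from -0.21 to 0.35), and *Ppara* in the interaction (from -0.057 to 0.10). Of all 222 estimates (37 members in 6 comparisons), 40 changed sign under at least 1 alternative, and 0 of these were called. The medians of the lists moved by less than their spread between mice. With 6 or 7 mice a group, estimates carried a median SE of 0.06 to 0.08 on the log2 scale within a diet or genotype. Why the tools differ was not tested.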
